A study of Mus musculus with 15 samples.

Results

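The genes described here are 10 heat shock genes of the cytosol and mitochondria, Hspa1a, Hspa1b, Hsp90aa1, Hsp90ab1, Hspb1, Dnajb1, Hsph1, Hspa8, Hspd1 and Hspe1. They were taken as every probe that is not a control and that carries one of these names in the array's annotation. Of the 10 genes, 9 had a probe of their own name, with 14 probes among them, out of 22032 gene symbols and 29522 named probes in all. No probe was named Hspa1b, and the single Hspa1a probe lists the RefSeq transcripts of both Hspa1a and Hspa1b, so that its signal cannot be assigned to either.

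Total liver RNA of male CD1 mice was measured on single-colour arrays. Group C received saline and then the empty plasmid. Group T received diethylnitrosamine (DEN), a liver carcinogen, at 25 µg/g by intraperitoneal injection on day 15 of life and then the empty plasmid. Group G received the same DEN dose and then a plasmid with an HA-tagged Gas1 gene behind the CAG promoter (CAG-HAGas1), which is active in most cell types. Gas1 encodes a growth arrest protein of the cell membrane. All groups had hydrodynamic gene delivery (HGD), a rapid injection of a large volume that carries plasmid into a fraction of the liver cells, with 50 µg of plasmid. It was repeated weekly from week 28 to week 34, and the mice were killed at week 35. An age of 10 weeks stands in the sample records instead, which also name another RNA extraction than the methods do.

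Heat shock proteins are chaperones that bind unfolded proteins and help them fold or keep them from aggregating. HSP70 proteins work in cycles of ATP hydrolysis that J-domain proteins such as Dnajb1 start and nucleotide exchange factors such as Hsph1 reset, and HSP90 proteins take over many clients at a later stage. Hspd1 and Hspe1 form the folding chamber of the mitochondrial matrix and its lid. The stress-induced members are switched on by heat shock factor 1 (Hsf1), which binds alternating GAA and TTC units, while Hspa8 and Hsp90ab1 are abundant in unstressed liver.

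The probes decide which transcript is read. The sequences of a stress-induced and a constitutive HSP70 gene are shown because both probes reach into the same stretch of these related genes, in which 15 of 23 aligned bases are identical (capitals).

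Hspa1a probe: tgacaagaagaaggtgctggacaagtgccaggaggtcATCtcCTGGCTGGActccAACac
Hspa8 probe A_55_P2069721: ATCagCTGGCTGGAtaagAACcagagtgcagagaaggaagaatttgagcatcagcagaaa

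The former lies on the minus strand at chr17:35107117-35107176 of mm9. The latter is given on the plus strand over chr9:40612755-40613050, a span of 296 bases for 60 bases of probe, and so crosses an intron. Another coding probe, of Hsph1, lies on the minus strand at chr5:150420110-150420169 and is shown because this gene had the largest difference between group G and group T among the members.

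Hsph1 probe A_55_P2003513: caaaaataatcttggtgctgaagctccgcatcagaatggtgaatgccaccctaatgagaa

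For the binding motif of heat shock factors, the RefSeq promoter windows (GRCm38.p6, 250 bases before to 50 after each start) were searched on both strands. They hold 7 of the 10 members in 10 windows. Hsp90aa1, Hsp90ab1 and Hspa8 have no entry there. An array of 3 alternating units, GAANNTTCNNGAA or TTCNNGAANNTTC, was found in 198 of 32851 windows, which is 0.603%. Among the members it was found in Hsph1, Hspd1 and Hspe1. The shorter form with 2 units, GAANNTTC or TTCNNGAA, which lies within every longer array, was found in 4946 windows (15.1%) and in 6 of the 7 members, all except Dnajb1. The stretches below carry the units in capitals and show how the members differ.

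Hspe1: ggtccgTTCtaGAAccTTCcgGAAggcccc
Hsph1: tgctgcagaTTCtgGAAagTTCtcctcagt
Hspb1: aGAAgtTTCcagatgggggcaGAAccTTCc
Hspa1a: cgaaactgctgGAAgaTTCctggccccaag
Hspa1b: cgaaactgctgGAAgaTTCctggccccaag

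The Hspe1 stretch, chr1:55088053-55088082 on the plus strand, holds 4 units from base -89 to base -72 before its start. Read on the minus strand, the same stretch lies from base -144 to base -127 before a start of Hspd1, since these genes run head to head with 216 bases between that start and the start of Hspe1. The window of another Hspd1 start, at chr1:55088243, held no such units. The printed Hsph1 units lie after the start, at chr5:149636280-149636309 on the minus strand. Another Hsph1 stretch, chr5:149636351-149636380, holds 2 units from base -54 to base -47 before the same start. The Hspb1 stretch, chr5:135887801-135887830 on the plus strand, holds 2 separate pairs. The Hspa1a stretch is at chr17:34972242-34972271 and the Hspa1b stretch at chr17:34959324-34959353, both on the minus strand, and the windows of these genes are identical in 296 of 300 bases. A match describes the letters only.

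The 15 arrays lay on 2 slides that each held all groups. Arrays C3 and C4 carried the same RNA code, as did T4 and T5, and their values differed with an SD of 0.152 and 0.149, against at least 0.307 and 0.251 between other arrays of the group. Each pair was averaged and counted as 1 mouse, called C3 and T4 here, so that group C has 3 mice, group T 4 and group G 6. Nothing else in the records says how samples of a group relate, so that p-values measure only the spread between these samples. Values are log2 intensities after background correction and quantile normalization, which gives every array the same distribution, and 1 unit is a 2-fold difference. Between 15707 and 29765 spots per array were well above background, and all 8 hepatocyte markers were so on every array. Gas1 itself had means of 6.53, 6.54 and 6.61 in groups C, T and G. These lie little above the means of the Hspa1a probe (6.29, 6.24 and 6.18), which was near the background. Gas1 differed by 0.08 between group G and group T (adjusted p = 0.768, limma), so that its array value does not tell these groups apart. Whether the array reads the plasmid's transcript was not tested. The paper detected the tagged RNA and protein in livers after delivery.

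Mouse G6 stands apart. Of 11 skeletal muscle genes, a list written after values were seen, 10 were highest in G6, and their mean log2 intensity was 11.30 there, against 5.98 to 6.41 in the other mice. Acta1, the actin of skeletal muscle, had 13.47 in G6 and at most 7.48 elsewhere. Differences of group G are therefore given with and without this mouse for every member, and for other genes and lists where its absence ended a call or moved a count of calls by over 1.5-fold. In bulk RNA, fewer cells of a type and less RNA per cell cannot be told apart.

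No member passed an adjusted p of 0.05 in any of the 3 comparisons, where limma tested all 22032 genes in 1 model. In group T against group C, which addresses the effect of DEN, 0 of 9 members passed, with 2.38% of all genes called. In group G against group T, which addresses the plasmid in DEN-treated mice, 0 of 9 passed, with 0.127% of all genes called. In group G against group C, 0 of 9 passed, with 0.427% called. The comparisons share mice and are not independent. At an unadjusted p under 0.05 there were 2 members of 9 in the first comparison, 3 in the second and 2 in the third, where 20.3%, 10.9% and 13.2% of all genes reached that level, and 27.8%, 17.1% and 22.1% of the 6780 genes detected on all arrays. The mice of T and C overlapped in every member, so that 0 of 9 were without overlap, beside 19.1% of all genes and 23.6% of those detected. The median log2 difference of the 9 members was -0.05, -0.08 and -0.14 in the same order, and that of all genes was 0.01, -0.01 and 0.00. Without G6 there were again 0 members called in each comparison, where 725, 13 and 153 of all genes were called. Below the unadjusted limit were then 2, 2 and 2 members, beside 4687, 2277 and 3202 of the 22032 genes.

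**Figure D1:**
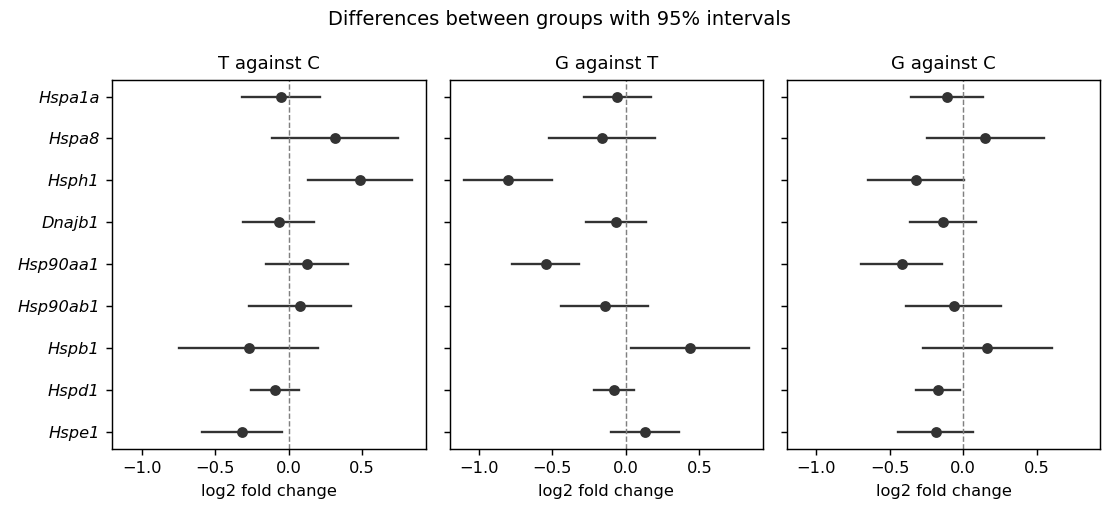
Log2 fold change (x axis) of each measured heat shock gene (y axis) in the 3 comparisons. Points are the limma estimates and lines their 95% intervals, with 13 mice for all genes except Hsp90aa1 (10 mice). In G against T the intervals of Hsph1 and Hsp90aa1 lie wholly below 0 and that of Hspb1 wholly above. In T against C the interval of Hsph1 lies above 0 and that of Hspe1 below. In G against C those of Hsp90aa1 and Hspd1 lie below 0. No gene passed the adjusted threshold.

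Hsph1, the HSP110 protein that resets HSP70, came closest to the threshold. Its log2 intensity was 8.26, 8.18 and 7.78 in mice C1 to C3 and 8.51, 8.54, 8.24 and 8.93 in mice T1 to T4. In group G it ran from 7.52 over a median of 7.75 to 8.05. Every G mouse lay below every T mouse, and in group C 1 mouse lay among those of group G. The difference of G against T was -0.80 (standard error 0.14, 95% interval -1.10 to -0.50), which is 1.74-fold lower, with an adjusted p of 0.0511. By p-value it ranked 29 of 22032, just after the 28 genes that were called. Groups without overlap were found in 2 of 9 members in this comparison, Hsph1 and Hsp90aa1, and in 3.13% of all genes (4.38% of those detected on all arrays). Hsp90aa1 had a value in only 4 mice of group G, and fewer mice separate more easily. For Hsph1, leaving out G6 moved little. The Hsph1 difference was again -0.80 without G6, with an adjusted p of 0.0693. It was -1.04 within slide 1 and -0.74 within slide 2.

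Both Hsph1 probes pointed the same way. They gave -0.83 (adjusted p = 0.0287 over all probes) and -0.77 (adjusted p = 0.0989), the latter for the probe printed above. In T against C the gene was 0.48 higher (standard error 0.16, unadjusted p = 0.0115, adjusted p = 0.127), and no mouse but T3 lay below the highest C mouse. G against C gave -0.32 (adjusted p = 0.390), again -0.32 without G6, a value that was 0.32 under median scaling.

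Hspa8, the constitutive HSP70 that folds new proteins and drives clathrin uncoating, varied as much within groups as between them. It had 12.02, 12.32 and 11.43 in mice C1 to C3 and 12.09, 12.30, 12.08 and 12.47 in mice T1 to T4. In group G it ran from 11.78 over 12.01 to 12.50. All groups overlapped, with differences of 0.31 in T against C (95% interval -0.11 to 0.74), 0.15 in G against C and -0.16 in G against T (95% interval -0.53 to 0.20). Without mouse C3, the lowest of all, T against C was 0.07 and G against C -0.10. G against T was -0.47 within slide 1 and 0.01 within slide 2. Without G6 the values were 0.17 in G against C and -0.15 in G against T. The 3 Hspa8 probes agreed in sign in every comparison, and 1 spot of A_55_P2080603 was left out in mouse T1 for its outlier flag. That probe and A_55_P2069721 each list another RefSeq transcript beside that of Hspa8.

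The Hspa1a probe, which reads the stress-induced HSP70 genes, was near the background. It was well above background on 2 of 4 arrays of group C, 2 of 5 of group T and 3 of 6 of group G. Its log2 intensity was 6.37, 5.96 and 6.55 in mice C1 to C3 and 6.19, 6.04, 6.43 and 6.30 in mice T1 to T4, and it ran from 6.10 over 6.17 to 6.33 in group G. The values of groups T and G lay within the range of group C. The differences were -0.05 between T and C, -0.06 between G and T and -0.11 between G and C, with adjusted p-values of 0.863, 0.890 and 0.733, and each changed sign in at least 1 alternative. Without G6 the differences of group G were -0.05 from T and -0.10 from C. Near the background such values say little about the size of a change.

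Dnajb1, the J-domain protein that starts the HSP70 cycle and a classical target of heat shock factor 1, overlapped in all groups. It had 9.38, 9.40 and 9.21 in mice C1 to C3, and 9.19, 9.22, 9.48 and 9.14 in mice T1 to T4. Group G ran from 8.97 over 9.23 to 9.36. In the order of comparisons above, the differences were -0.07 (95% interval -0.31 to 0.17), -0.07 (95% interval -0.27 to 0.14) and -0.14 (95% interval -0.36 to 0.09), and the first was 0.83 under median scaling. Without G6 the last were -0.03 and -0.10.

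**Figure D2:**
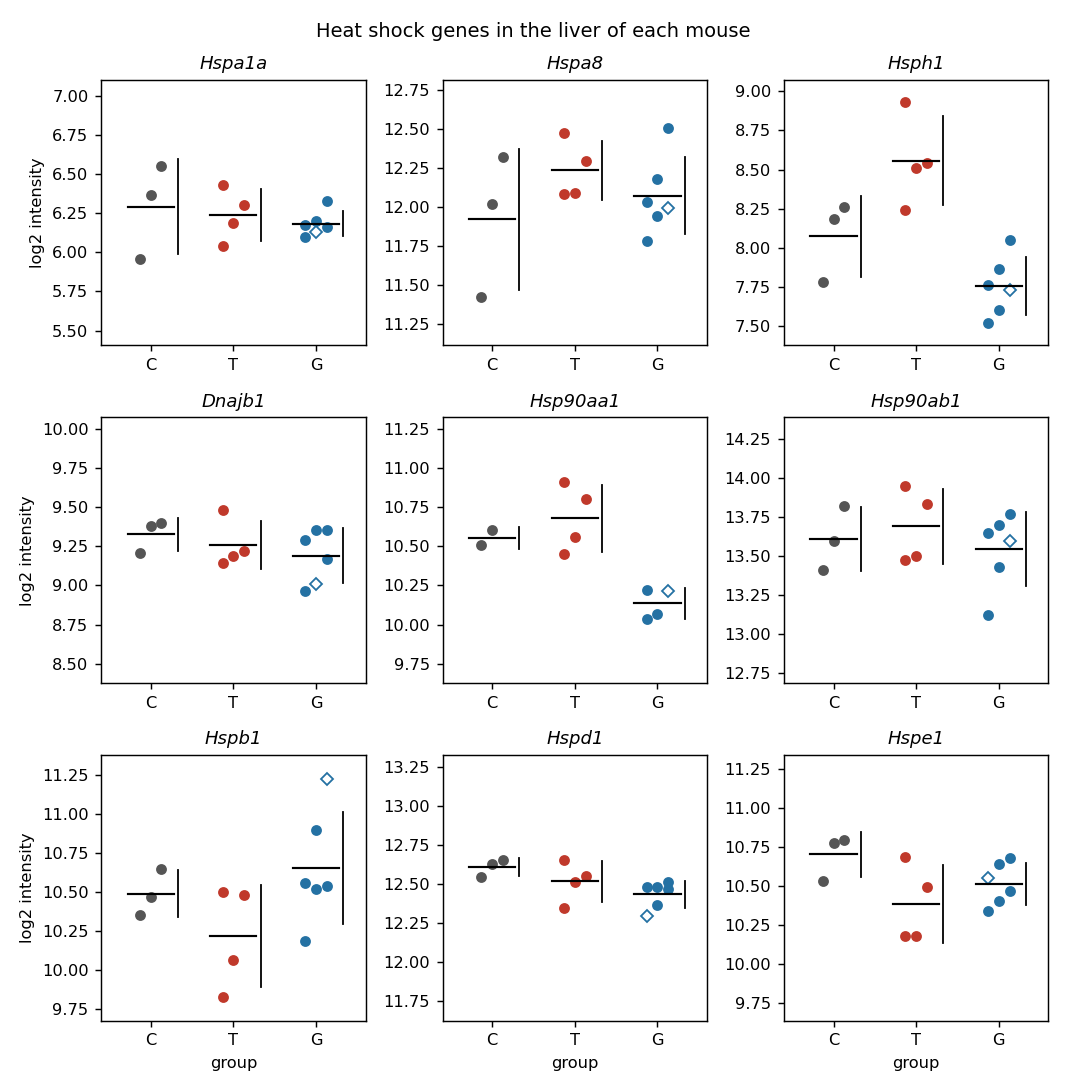
Log2 intensity (y axis) of the 9 measured heat shock genes in each mouse, by group (x axis). Circles are mice, the open diamond is mouse G6, horizontal lines are group means and vertical lines the SD, and every panel spans the same range of log2 units. Group G lies wholly below group T in Hsph1 and Hsp90aa1, and the groups overlap in the other panels of that comparison.

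Hsp90aa1, the stress-induced HSP90, was measured in 10 of the 13 mice, because its spot carried an outlier flag on both arrays of C3 and on those of G4 and G5. Its single probe lists a predicted transcript beside Hsp90aa1. The gene had 10.60 and 10.51 in mice C1 and C2, and 10.80, 10.56, 10.45 and 10.92 in mice T1 to T4. In the 4 remaining G mice it had 10.22, 10.07, 10.04 and 10.21. These lay below all measured mice of both other groups, with C3 not measured. The difference of G against T was -0.55 (standard error 0.10, 95% interval -0.77 to -0.32), which is 1.46-fold lower, with an adjusted p of 0.0879 and a rank of 86. Without G6 it was -0.57 (adjusted p = 0.108), and it was -0.62 within slide 1 and -0.57 within slide 2. The only alternative that called Hsp90aa1 took all 15 arrays as separate mice, so that T4, the highest mouse, counted as 2. That fit is also among those that called Hsph1, in which T4 was highest too.

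In G against C, Hsp90aa1 gave -0.42 (unadjusted p = 0.00731, adjusted p = 0.193), and -0.45 without G6 (adjusted p = 0.174). It was 1 of 2 members without overlap there, beside 5.86% of all genes and 9.68% of those detected, and Hspd1 was the other. Hsp90aa1 rests on 4 G and 2 C mice, and fewer mice separate more easily, so these shares are not matched to it. The flagged spots bear on this comparison. With outlier spots kept, C3 had 10.06 and 10.15 on its arrays, within the range of group G, and the difference was -0.34. G4 and G5 then had 10.06 and 9.83, below every T mouse, and G against T was -0.61 (adjusted p = 0.0763). G against C was 0.78 under median scaling. T against C gave 0.13 (adjusted p = 0.632).

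Hsp90ab1, the constitutive HSP90, did not separate the groups. It had 13.82, 13.41 and 13.60 in mice C1 to C3, and 13.83, 13.48, 13.50 and 13.95 in mice T1 to T4. Group G ran from 13.13 over 13.62 to 13.77. In the same order, the differences were 0.08 (95% interval -0.27 to 0.43), -0.14 (95% interval -0.44 to 0.15) and -0.07 (95% interval -0.39 to 0.26), and the first and last changed sign when single mice were left out. Without G6 they were -0.15 in G against T and -0.08 in G against C.

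Hspb1, a small heat shock protein that binds unfolded clients without ATP and stabilises actin, was the member with the widest spread in group G. It had 10.35, 10.47 and 10.65 in mice C1 to C3, and 10.50, 9.83, 10.07 and 10.48 in mice T1 to T4. Group G ran from 10.19 over 10.55 to 11.22, with G6 at the top. All groups overlapped. The difference of G against T was 0.44 (standard error 0.18, unadjusted p = 0.0346, adjusted p = 0.415). Without G6 it was 0.32 (unadjusted p = 0.0620), and it was 0.73 within slide 1, which holds G6, and 0.08 within slide 2. G against C gave 0.16, and 0.05 without G6.

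G6 also carried the highest level of 5 of the 8 other small heat shock genes, which were named after their values were seen. Cryab, a small heat shock protein of lens and muscle, had 9.62 in G6 and at most 7.47 in any other mouse. Hspb6 had 9.85 there against at most 8.52, Hspb2 7.55 against 6.34, Hspb7 7.15 against 6.47 and Hspb3 6.65 against 6.08. In Hspb8, Cryaa and Hspb9 other mice were higher than G6. The mean of the skeletal muscle genes moved with these values, and its part in the Hspb1 result was not tested. Over the list of 8, no gene was called in any comparison.

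**Figure D3:**
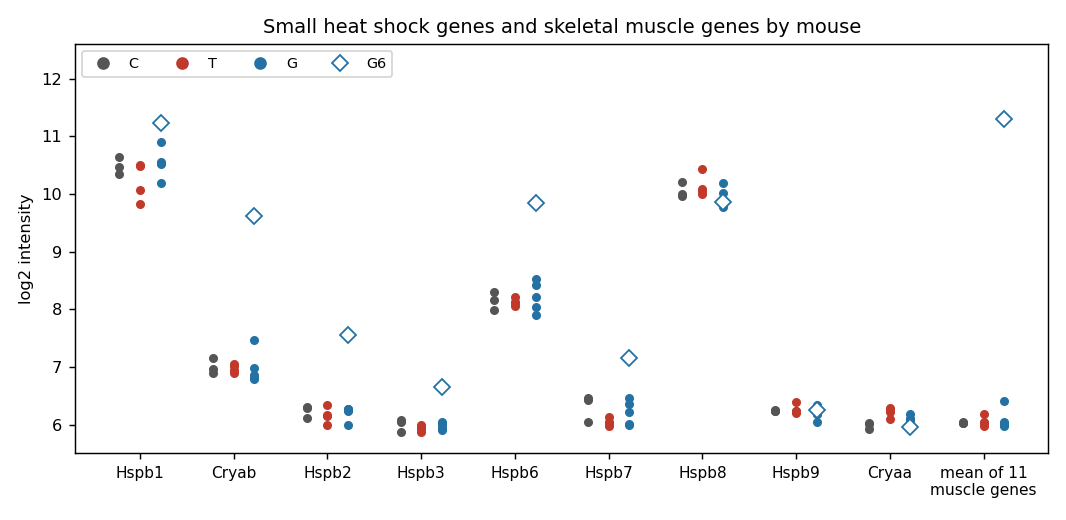
Log2 intensity (y axis) of Hspb1, the 8 other small heat shock genes and the mean of 11 skeletal muscle genes (x axis) in each mouse. Circles are mice of groups C, T and G and the open diamond is G6, which had 9.62 for Cryab and 11.30 for the muscle mean, above all other mice.

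The mitochondrial pair was slightly lower in both DEN-treated groups than in group C, in values that did not pass the adjusted threshold and that were higher under median scaling. Hspd1, the HSP60 chamber, had 12.54, 12.62 and 12.65 in mice C1 to C3, and 12.51, 12.34, 12.55 and 12.65 in mice T1 to T4. Group G ran from 12.29 over 12.47 to 12.51. All G mice lay below all C mice. The difference of G against C was -0.17 (standard error 0.07, unadjusted p = 0.0263, adjusted p = 0.305), and without G6 it was -0.15 (unadjusted p = 0.0494). T against C gave -0.09 and G against T -0.08 (-0.05 without G6), with overlap in both.

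Hspe1, the HSP10 lid, had 10.53, 10.80 and 10.78 in mice C1 to C3, and 10.49, 10.18, 10.18 and 10.69 in mice T1 to T4. Group G ran from 10.34 over 10.51 to 10.68. The difference of T against C was -0.32 (standard error 0.13, unadjusted p = 0.0264, adjusted p = 0.183), with overlap. G against T gave 0.13 and G against C -0.19, and without G6 these were 0.12 and -0.20.

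The Hspe1 value is a mean of 3 probes that behaved differently. A_55_P1953063, given over chr1:55147620-55147946 of mm9, lists a predicted transcript beside Hspe1, and its sequence is shown because its level followed the slide.

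Hspe1 probe A_55_P1953063: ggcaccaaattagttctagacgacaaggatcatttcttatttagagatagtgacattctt

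On slide 1 it ran from 7.11 to 7.64 and on slide 2 from 6.43 to 6.79, a difference of 0.77 between the means with no overlap. The RNA of C3 gave 7.55 on slide 1 and 6.79 on slide 2, and that of T4 gave 7.64 and 6.66. Arrays of the slides were separate in this way in 104 of 29522 probes (0.352%) and in no other probe of the members. The other Hspe1 probes overlap each other, shifted by 3 bases, and differ in 1 of 57 shared bases, C15T counted from 1 at the 5′ end of A_55_P2089358. They gave -0.47 (adjusted p = 0.148) and -0.43 (adjusted p = 0.107) in T against C, against -0.05 for the probe that followed the slide. Without that probe, the gene gave -0.45 in T against C (adjusted p = 0.124), -0.31 in G against C (adjusted p = 0.372) and 0.14 in G against T.

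**Figure D4:**
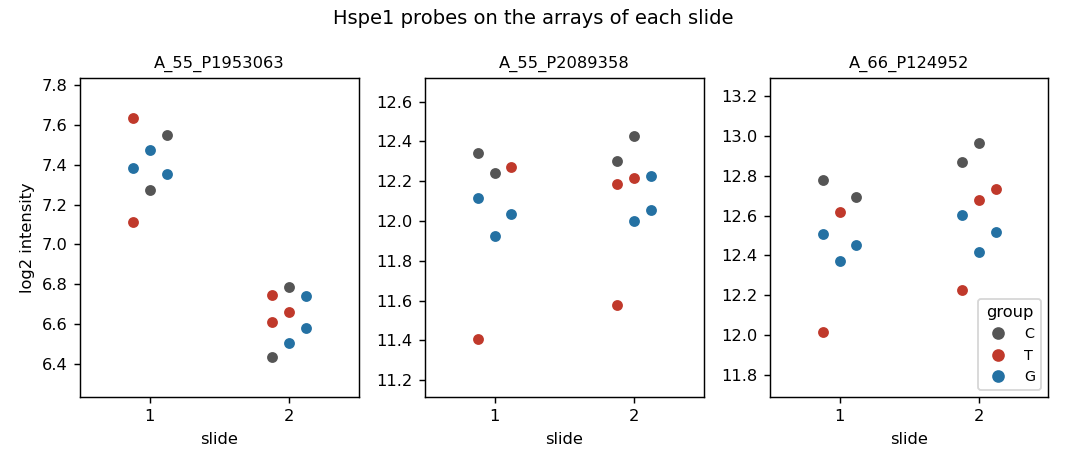
Log2 intensity (y axis) of the 3 Hspe1 probes on each array, by slide (x axis) and coloured by group. Each point is 1 array and each panel spans the same range of log2 units. The probe on the left has no array of slide 1 below 7.11 and none of slide 2 above 6.79, while the slides overlap in the other panels.

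Across the 13 mice, the head-to-head genes Hspd1 and Hspe1 had a Pearson r of 0.51 (permutation p = 0.0786, adjusted 0.157) and a Spearman rho of 0.50 (permutation p = 0.0841, adjusted 0.168). Without mice G6 and T2, the farthest from the median of Hspd1, r was 0.50, and on deviations from the group means it was 0.51. Hsp90aa1 and Hsp90ab1 had r = 0.31 in 10 mice (permutation p = 0.374, adjusted 0.374) and rho = 0.36 (permutation p = 0.313, adjusted 0.313). Their r was 0.08 without G3 and T4 and 0.65 within groups. Both tests were two-sided and neither passed. For Hspd1 and Hspe1, r was 0.68 with the brightest probe of each gene (adjusted p = 0.0197) and 0.62 without the Hspe1 probe that followed the slide (adjusted p = 0.0443), but 0.30 with the processed signal (adjusted p = 0.315). For Hsp90aa1 and Hsp90ab1, r was 0.59 in all 13 mice with outlier spots kept (permutation p = 0.0339, adjusted 0.0679) and 0.63 with the processed signal (adjusted 0.102). The planned relation of Hspa1a with Hspa1b could not be formed without an Hspa1b probe.

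Over all 36 pairs of members, r ran from -0.67, for Hspb1 with Dnajb1, to 0.90, for Hsp90aa1 with Hsph1, with a median of 0.14. The last pair had r = 0.61 within groups. Among 6230 genes with a value in all 13 mice and well above background on all arrays, those most like the mean of the centred members were Ears2 (r = 0.84), Ahsa1 (0.82), Paox (0.78), Dock6 (0.77), Ahcyl2 (0.77), Prdx1 (0.76), Oma1 (0.75) and Selk (0.75). Ahsa1 encodes the activator of the HSP90 ATPase, and it is the single one of these 8 on the companion lists below. The least like were Plbd2 (-0.83), Cck (-0.79), Snx2 (-0.79) and Atp5sl (-0.78). These values describe the mice and carry no test.

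The other genes of the chaperone system were counted in the same way. Of 67 measured genes on 7 lists (heat shock factors, other HSP70 and HSP110, co-chaperones of HSP70 and HSP90, other small heat shock proteins, mitochondrial chaperones and proteases, and the CCT chaperonin), 1 was called in G against C and 0 in each of the other comparisons. Their medians were -0.05 in T against C, -0.08 in G against C and -0.04 in G against T. At an unadjusted p under 0.05, 7 were higher and 9 lower in T against C, 3 were higher and 11 lower in G against T, and 0 were higher and 12 lower in G against C. In that order, 20.3%, 10.9% and 13.2% of all genes reached that level, and 27.8%, 17.1% and 22.1% of those detected on all arrays. Median scaling moved the median of all detected genes by 0.73 in T against C. With it 20 of the 67 were called there, all higher, with a list median of 0.62, beside 2876 of all 22032 genes. The gene called was Fkbp4, a co-chaperone that links HSP90 to steroid receptors. It had 8.30, 8.31 and 8.26 in mice C1 to C3, and ran from 7.50 to 7.99 in group G, all below group C. Fkbp4 was 0.60 lower in G against C on the log2 scale (value -0.60, standard error 0.11, adjusted p = 0.0403) and -0.56 without G6 (adjusted p = 0.0364), a direction that turned to 0.06 under median scaling.

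Hsf1 itself gave 0.14 in T against C (adjusted p = 0.420; 0.56 with an adjusted p of 0.0465 under median scaling) and 0.00 in G against T (adjusted p = 0.990). Among the co-chaperones of HSP70, Bag3, which hands clients to autophagy, gave -0.46 in T against C (adjusted p = 0.0845) and -0.51 in G against C (adjusted p = 0.105), and Dnajb2 gave -0.36 in G against C (adjusted p = 0.104). Without G6, 1 gene of that list, St13, was called in T against C at -0.31 (adjusted p = 0.0493), against 0.0556 with all mice. Of the other HSP70 genes, Hspa13 gave -0.38 in G against T (adjusted p = 0.127) and Hspa4l -0.47 in G against C (adjusted p = 0.132). Clpx, a subunit of a protease of the mitochondrial matrix, gave -1.48 in T against C (adjusted p = 0.0634) and -1.09 in G against C (adjusted p = 0.211). Trap1, the mitochondrial HSP90, gave -0.29 in T against C (adjusted p = 0.0796), and Tcp1 of the chaperonin gave -0.33 in G against C (adjusted p = 0.210). Most of these directions turned under median scaling, which gave Bag3 0.49 and 0.34, Dnajb2 0.12, Hspa4l 0.06, St13 0.61, Trap1 0.65 and Tcp1 0.47 in the comparisons named. Hspa13 (-0.42) and Clpx (-0.54 and -0.25) kept their sign there.

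The list for the endoplasmic reticulum holds the transcription factors Ddit3 and Xbp1 beside chaperones. It had medians farther from 0 than the members in the comparisons with group T. Over its 15 genes the median was 0.41 in T against C and -0.38 in G against T. At an unadjusted p under 0.05, 7 genes were higher and 0 lower in the former, and 0 higher and 11 lower in the latter. Of all genes, 20.3% and 10.9% reached that level, and of those detected on all arrays 27.8% and 17.1%. After adjustment 1 gene of the list was called in each comparison. Under median scaling the list medians were 1.17 and -0.55, with 14 and 0 genes called, beside 2876 and 8 of all genes. With the processed signal they were 0.51 and -0.58, with 0 called in both. Without G6, G against T had a median of -0.34 and 0 genes called. Dnajb11, a J-domain protein of that compartment, rose by 0.67 in T against C (adjusted p = 0.0394). Sdf2l1, its partner in a chaperone complex, was -0.92 in G against T (adjusted p = 0.0449), and its adjusted p was 0.0693 without G6.

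**Figure D5:**
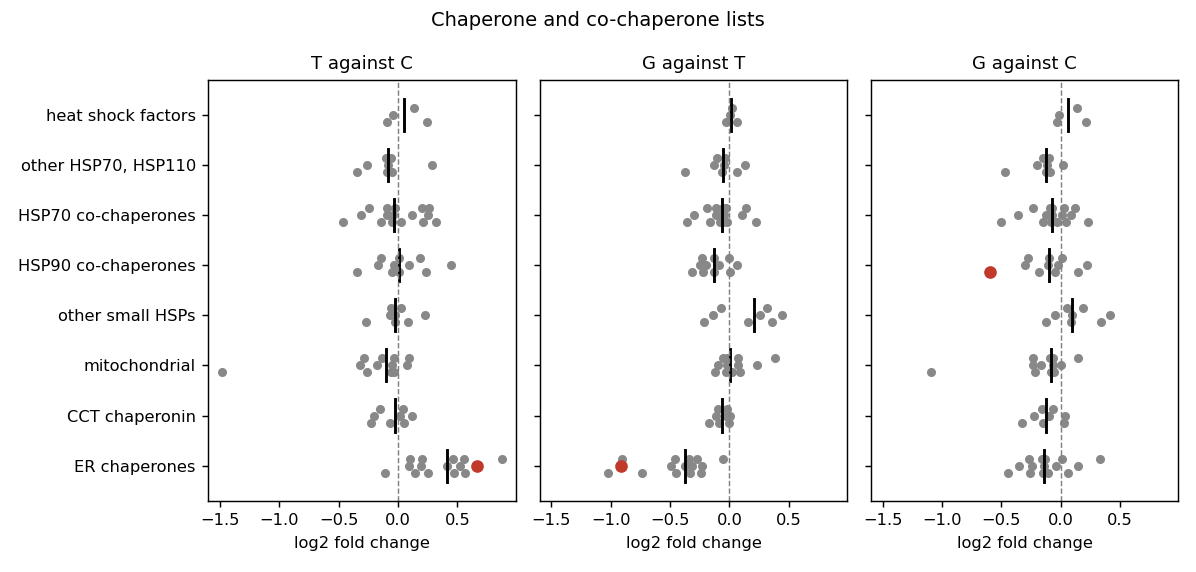
Log2 fold change (x axis) of each measured gene of 8 chaperone lists (y axis) in the 3 comparisons. Points are genes, large red points passed an adjusted p of 0.05 (Dnajb11 in T against C, Sdf2l1 in G against T, Fkbp4 in G against C), and black bars are the list medians, which are 0.41 and -0.38 for the endoplasmic reticulum list in the first 2 comparisons.

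Genes of some other lists differed between the same groups, and their part in the values above was not tested. Rbm3, an RNA-binding protein induced by mild cold, rose by 0.52 in T against C (adjusted p = 0.0218) and by 0.47 in G against C (adjusted p = 0.0467), while Cirbp, its relative, gave 0.21 and 0.27 (adjusted p = 0.602 and 0.554). Of 14 clock genes, 4 were higher in T against C and 3 in G against C after adjustment, the latter 5 without G6. Dbp, a clock output factor, rose by 3.72 and 4.29 in these comparisons, from between 7.03 and 8.26 in group C to between 9.37 and 11.99 in group T and between 10.59 and 12.81 in group G. Nr1d1 rose by 0.97 and 1.49, Tef by 1.53 and 1.68, and Nr1d2 by 0.97 in T against C. The time of day of sampling was not given in the sources used here. Of 10 immediate early genes, 1 was called, Btg2, which rose by 0.46 in T against C. Btg2 was well above background on 9 of 15 arrays, and Fos, Fosb, Junb and Zfp36 on at most 1. Near the background the size of such a rise says little.

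Of the cell type lists, the hepatocyte list had 1 of 8 genes called, Ttr at -1.01 in T against C (0.18 under median scaling, and -0.61 with an adjusted p of 0.106 in the authors' table), and the macrophage list 1 of 7, Emr1 at 0.31 in T against C. Of 6 cholangiocyte, 7 stellate, 6 endothelial, 6 lymphocyte and 4 erythroid genes, 0 were called. The erythroid median was 0.68 in T against C and 0.74 in G against C, and its mean log2 intensity ran from 9.73 to 10.50 in group C, from 10.67 to 10.91 in group T and from 10.08 to 11.38 in group G. Hbb-b1, a globin of red blood cells, gave 1.89 in T against C (adjusted p = 0.106). Of the companion genes called above with all mice, Dbp in T against C alone kept an adjusted p under the threshold (0.0385) with the processed signal less its 75th percentile, where 57 genes were called in that comparison, and all kept their direction there.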

How the data were processed

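The authors deposited, per the file headers, a mean intensity for each spot with a local background intensity from Agilent Feature Extraction 10.7.3.1 (probe positions in mm9), and a table of log2 values after normexp and quantile normalization. Those log2 values were used in an alternative only. From the intensity, values were rebuilt with limma 3.58.1 and the data.table package (1.17.8) under R 4.3.3: normexp with offset 50, log2, outlier spots missing, and quantile normalization of the 59305 spots that are not controls. Spots were averaged by probe, and the probes of a symbol were centred, averaged and set back to their mean level. Groups were compared with lmFit and eBayes in 1 model of the 3 groups, with Benjamini-Hochberg adjustment over 22032 genes and a threshold of 0.05. The fit was tested on simulated data. Single-colour arrays have no read depth, and the number of mice limits the precision. Relations used 1e+05 permutations. The members and lists were chosen with earlier results of these data known. All 9 measured members were named. Of each list, up to 4 called genes by size, or at most 2 by unadjusted p where none was called, were named. Hsf1, Cirbp and Rbm3 were always named.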

Additional observations from a re-analysis of the deposited data

Results flagged for a closer look

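In groups T and G, the highest and lowest mouse of 49 named genes were compared with the gap to the next mouse, 97 groups in all, of which chance alone marks about 1 in 20. The gap was over the limit in 8, all in mouse G6, and in 0 groups of the members. The values in G6 were 9.62 for Cryab (next mouse of the group 7.47), 7.55 for Hspb2 (6.27), 6.65 for Hspb3 (6.04), 9.85 for Hspb6 (8.52), 8.58 for Des (6.62), 13.47 for Acta1 (7.48), 10.85 for Ckm (6.21) and 12.39 for Mb (6.35). Most of these genes were named after their values had been seen.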

How the results depend on the processing

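Across 28 alternatives, Hsph1 was lower in group G than in group T in each (-1.15 to -0.68) and was called in 6 of the 26 with a test (adjusted p 0.0114 to 0.338). Hsp90aa1 was lower in each too (-0.75 to -0.47, adjusted p 0.0284 to 0.720) and was called in 1, with 15 arrays as separate mice. Against 0 members called, G against T gave 1 with a dim probe filter and 1 with the brightest probe per gene. It gave 1 with a slide term and random mouse block and 2 with 15 arrays. T against C gave 1 with 15 arrays and 3 with median scaling. Calls over all genes rose in the same fits. In G against T they were 86 of 10493, then 43, 80 and 263 of 22032, against 28 in the main setting. In T against C they were 1947 and 2876 of 22032, against 525. Leaving out each mouse in turn gave 0 to 1 members in G against T (1 without C1 or T1) and 0 to 0 in the other comparisons. The genes called then ranged from 89 to 761 in T against C, from 5 to 127 in G against T and from 0 to 182 in G against C. With the replicate block, 0 members and 268, 6 and 55 genes were called, in the order T against C, then G against T, then G against C. Whether equal numbers mark pairs stayed undecided. Of 10 same-number pairs, 8 had a correlation of deviations not over 0.1 (-0.24 to 0.20). Yet 4 of 9 mice were closest to their own number.

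Median scaling moved the median of the 6780 detected genes by 0.73 in T against C and 0.65 in G against C, and it called 2876, 8 and 0 genes, where the main setting called 525, 28 and 94. With it the members called in T against C were Hsp90aa1 (1.52), Hsph1 (1.23) and Hspa8 (1.35), and the sign turned in Hspb1 (0.70), Dnajb1 (0.83), Hspd1 (0.89) and Hspe1 (0.44). In G against C the sign turned in Hsp90aa1 (0.78), Hsp90ab1 (0.78), Dnajb1 (0.66), Hsph1 (0.32), Hspd1 (0.65) and Hspe1 (0.47). The processed signal less its 75th percentile moved the median of all genes by -0.41 in T against C and -0.30 in G against C, called 57, 3 and 1 genes, and turned Dnajb1 in T against C (0.0913) and Hspa1a in G against T (0.0974). Hsp90ab1 in G against C turned with the authors' table (0.00333), with the replicate block (0.0184), and ran from -0.16 to 0.0407 when mice were left out (above 0 without C1 or G5). Other values near 0 that turned when a mouse was left out ran, in T against C, from -0.0196 to 0.19 in Hsp90ab1 (below 0 without C2 or T4) and from -0.22 to 0.0775 in Hspa1a (above 0 without C3 or T2). In G against C they ran from -0.28 to 0.0196 in Hspa1a and from -0.0964 to 0.35 in Hspa8, turned without C3, and in G against T from -0.12 to 0.00532 in Hspa1a and from -0.11 to 0.00750 in Dnajb1, turned without T3. The r of Hspd1 with Hspe1 was 0.91 under median scaling, 0.68 with the brightest probe and 0.62 without the slide-dependent Hspe1 probe, and that of Hsp90aa1 with Hsp90ab1 was 0.92 under median scaling, each past the threshold. With the processed signal they were 0.30 and 0.63, not past it. The hepatocyte median in T against C was -0.06, and 0.21 with the authors' table. The causes were not tested.

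Other counts of genes called, in that order, were 717, 86 and 154 with the dim filter (10493 genes tested), 603, 43 and 111 with the brightest probe, 1947, 263 and 342 with 15 arrays, 799, 80 and 166 with the slide term, and 359, 11 and 47 with only the 2 groups compared. The methods' t-test called 0, 5 and 1 genes after adjustment with equal variances and 0, 1 and 0 with unequal variances, and 0 members. At its unadjusted threshold there were 0, 2 and 2 members with either form. Of all genes, 3846, 2302 and 2218 reached that threshold with equal variances and 2961, 2183 and 2010 with unequal variances, of 22000, 22017 and 22002 tested. Keeping outlier spots and leaving out the slide-dependent Hspe1 probe were chosen after seeing the data and called 0 members.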
